A study of Bos indicus x Bos taurus with 78 samples.

Results

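Rows for miR-199, miR-214 and miR-21 in the deposited miRNA counts of steer loin muscle are described here. They were selected by name, as the bovine rows called miR-199a, miR-199b, miR-199c, miR-214 or miR-21, with or without an arm suffix. The name rule found 7 of the 1030 rows: bta-miR-199a-5p, bta-miR-199a-3p, bta-miR-199b, bta-miR-199c, bta-miR-214, bta-miR-21-5p and bta-miR-21-3p, named below without the species prefix. Of these, 6 passed the filter on low counts and miR-21-3p did not. The small RNA libraries came from Longissimus lumborum (loin) biopsies, 1 for each of 78 crossbred steers (Bos indicus x Bos taurus). The labels class 25 steers as dark-cutting and 53 as normal. Dark-cutting steers carry a degree: 8 steers are labelled 1/4, 9 are 1/3, 3 are 1/2, 4 are 2/3 and 1 is 3/4. All are castrated males, and the labels used here give no age, feed, sire or day of sampling.

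Dark cutting is a meat defect in which the cut surface stays dark after slaughter, known to go with low muscle glycogen and a high final pH. A miRNA is a short RNA cut from a hairpin precursor, whose 5p and 3p arms can each guide silencing of target mRNAs. In mouse and human, miR-199a and miR-214 come from a shared precursor transcript opposite to the dynamin gene DNM3, miR-199a also lies opposite to DNM2 and miR-199b opposite to DNM1, while miR-21 overlaps the end of VMP1. These miRNAs are known from fibroblasts and other mesenchymal cells: miR-21, miR-199a-5p and miR-214 are linked to fibrosis, and miR-29, a repressor of collagen mRNAs, is the best known miRNA acting the opposite way. A biopsy mixes muscle fibres with connective tissue, vessel, blood and fat cells. In such bulk samples, fewer cells of a type and less of the miRNA per cell cannot be told apart.

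Libraries held 1427817 to 4535675 counts, with a median of 3209320. The skeletal muscle miRNA miR-1 took 72.3 to 88.6% of a library. The 6 listed muscle miRNAs together summed to 836116 to 899771 CPM (counts scaled to a common library total) in dark-cutting steers and 762000 to 902058 CPM in normal steers. The listed epithelial miRNAs (miR-200a, miR-200b, miR-200c, miR-205, with miR-203 not used here) summed to at most 1.86 CPM in dark-cutting and 1.49 CPM in normal steers. The loin label therefore met its muscle markers, and no epithelial signal was seen above that level. The fibroblast origin of the rows has no such check, since no row of the matrix is assigned to a cell.

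The 7 rows together made up 0.408% ± 0.117 of a library's counts (SD, n = 78), with a range of 0.234 to 1.17%. By mean share over the steers, miR-21-5p ranked 17 among the 1030 rows, miR-199a-3p 37, miR-199a-5p 61, miR-199b 86, miR-199c 119, miR-214 138 and miR-21-3p 399. Mature miRNAs are of nearly the same length, so these CPM values can be set side by side, although the ligation steps of library preparation take up some sequences more readily than others. The ranges of neighbours in this order overlapped, except that the lowest miR-214 level, 4.65 CPM, lay above every miR-21-3p level. Between miR-21-5p and miR-199a-3p the overlap rested on 1 steer: the lowest miR-21-5p level was 1996 CPM and no library but 1 exceeded 960 CPM for miR-199a-3p, the exception standing at 2536 CPM against 7481 CPM of miR-21-5p in the same steer.

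Levels below are log2 CPM after scaling by the trimmed mean of M values (TMM), which sets libraries to a common level through their mid-range miRNAs. miR-21-5p, the most abundant row, had 6704 to 17898 counts in dark-cutting steers and 4218 to 22161 in normal steers. Its level ran from 11.14 through a median of 11.55 to 11.92 in dark-cutting steers, and from 11.29 through 11.65 to 12.21 in normal steers. The ranges overlapped over most of their length, and the highest steer exceeded the lowest by 3.75-fold in CPM. miR-21-5p was among the steadiest miRNAs of this muscle: its SD was 0.216 among dark-cutting and 0.219 among normal steers, and over all 78 steers its SD of 0.218 ranked 244 of 252 tested miRNAs from the most to the least variable. The SDs of all tested miRNAs had a median of 0.407 among dark-cutting and 0.431 among normal steers. Over all 78 steers, the 40 miRNAs nearest to miR-21-5p in mean level had a median SD of 0.270, closer to its 0.218.

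The other arm of the same hairpin, miR-21-3p, was close to absent. It had at most 3 counts in any library and 0 counts in 14 of 25 dark-cutting and 28 of 53 normal steers. With the filter on low counts lifted, its log2 fold change of dark-cutting over normal was -0.21 ± 0.43 (SE, edgeR adjusted p = 0.867), so a difference was not detectable at this depth.

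miR-199a-3p, the more abundant of the miR-199a arm rows, had 684 to 2950 counts in dark-cutting steers and 718 to 7512 counts in normal steers. Its level ran from 8.13 through a median of 8.87 to 9.59 in dark-cutting steers and from 8.16 through 8.95 to 10.64 in normal steers. Apart from 1 normal steer, the groups covered nearly the same span. miR-199a-5p, the opposite arm, ran from 6.68 through 7.35 to 8.33 in dark-cutting steers and from 6.66 through 7.41 to 9.50 in normal steers. The SD came to 0.421 for dark-cutting steers and 0.601 for normal steers. miR-199b, the row named for the related hairpin, ran from 5.68 through 6.55 to 7.02 in dark-cutting steers and from 5.80 through 6.50 to 7.66 in normal steers. miR-199c, a bovine row whose sequence was not used here, ran from 4.15 through 4.90 to 5.83 in dark-cutting steers and from 4.06 through 5.15 to 6.99 in normal steers.

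miR-214, which shares its precursor transcript with miR-199a in mouse and human, was the lowest of the tested rows and the most variable of them. It had 14 to 141 counts in dark-cutting steers and 22 to 283 in normal steers. Its level ran from 2.58 through a median of 4.11 to 5.23 in dark-cutting steers and from 3.22 through 4.05 to 5.93 in normal steers. Its SD was 0.642 among dark-cutting and 0.610 among normal steers, and over all steers its SD of 0.617 ranked 43 of 252. Between the highest and the lowest steer the CPM differed 20.5-fold for miR-214, 16.3-fold for miR-199c, 14.9-fold for miR-199a-5p, 12.5-fold for miR-199a-3p and 6.20-fold for miR-199b. Low counts add sampling error to the spread of miR-214 and miR-199c.

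A single steer, normal replicate 53, stood at the top of these ranges. It had the highest level of the 78 steers in miR-199a-5p, miR-199a-3p, miR-199c, miR-214 and miR-21-5p and the second highest in miR-199b. Its miR-199a-3p level was 10.64 from 7512 counts, against 9.89 from 2500 counts in the next steer, normal replicate 27. Its library was of ordinary depth, 2962185 counts, with 78.7% in miR-1. The steer with the lowest miR-199a-3p, dark-cutter 1/4 replicate 4 at 8.13, ranked 77 in miR-199c and miR-214, 74 in miR-199a-5p, 70 in miR-199b and 61 in miR-21-5p. Some results below are also given without normal replicate 53, but comparisons within ranges of steer title numbers were run only with it.

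**Figure D1:**
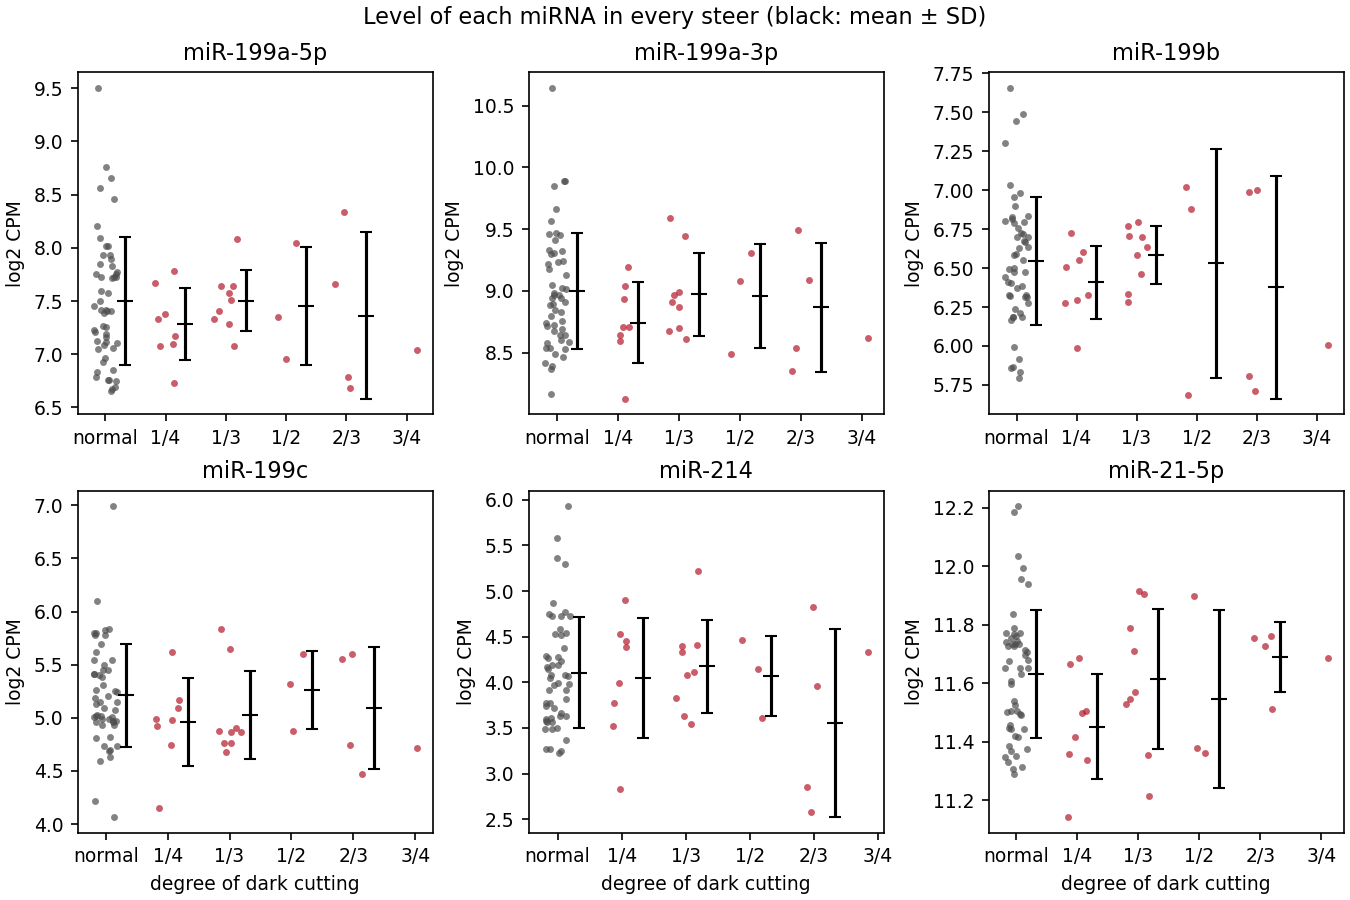
The level of each tested row in every steer is plotted as TMM-scaled log2 CPM (vertical axis) for normal steers and the 5 degrees of dark cutting (horizontal axis), with 1 point per steer and the mean ± SD in black where a group has 3 or more steers. The normal and dark-cutting clouds overlap in all 6 panels, and 1 normal steer lies at the top of 5 of them, for example at 10.64 in miR-199a-3p.

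Whether muscle of dark-cutting steers differs from that of normal steers in these miRNAs was tested with edgeR's quasi-likelihood test over all 252 miRNAs that passed the filter. None of the 6 rows was called at an adjusted p under 0.05, beside a background of 0% of the 252 miRNAs called and 23 of 252 at an unadjusted p under 0.05. DESeq2 and limma-voom also called 0 of the 252. The dark-cutting value was the lower in 6 of 6 rows under TMM scaling, against 54% of all tested miRNAs. The median log2 fold change was -0.13 in the 6 rows and -0.0091 over all tested miRNAs. As described below, the 6 rows were mostly correlated with each other over the steers (14 of 15 pairs called positive). A sign they share, here and in the comparisons below, is therefore not 6 separate observations. Scaling by the total count alone raised the median of all miRNAs to 0.10 and that of the 6 rows to -0.045. It turned miR-199b and miR-21-5p above 0 and left 4 of 6 rows below 0. Scaling by the total without miR-1 turned miR-21-5p above 0. A sign shared by all 6 rows therefore depends on the scaling.

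miR-199c had the log2 fold change farthest from 0, at -0.21 ± 0.12 (SE, 25 against 53 steers, edgeR adjusted p = 0.416). miR-199a-5p was at -0.20 ± 0.14 (edgeR adjusted p = 0.568) and miR-199a-3p at -0.17 ± 0.11 (edgeR adjusted p = 0.531). miR-214 was at -0.098 ± 0.15, miR-199b at -0.090 ± 0.098 and miR-21-5p at -0.063 ± 0.055, with adjusted p-values of 0.853, 0.791 and 0.690 in that order. No difference passed the test, and the 95% intervals give the size the data leave room for: -0.17 to 0.046 on the log2 scale for miR-21-5p, and at the widest -0.47 to 0.077 for miR-199a-5p and -0.40 to 0.21 for miR-214. Without normal replicate 53, miR-199a-5p moved to -0.12, miR-199a-3p to -0.12, miR-199c to -0.15 and miR-214 to -0.028, the closest to 0 that leaving out any 1 of the 78 steers brought them. Without normal replicate 21, miR-199b moved to -0.055 and miR-21-5p to -0.041. In the other direction, miR-214 moved to -0.17 without dark-cutter 1/3 replicate 5.

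The authors' deposited table of the same contrast gave log2 fold changes of -0.19 for miR-199a-5p, -0.17 for miR-199a-3p, -0.085 for miR-199b, -0.21 for miR-199c, -0.059 for miR-21-5p and -0.097 for miR-214. For miR-21-3p the authors' deposited table gave -0.25 with a standard error of 0.52. The lowest adjusted p of these rows in the authors' deposited table was 0.605, for miR-199c.

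The labels' title numbers fall into 2 ranges, below 600 in 8 dark-cutting and 18 normal steers, and 600 or above in 17 dark-cutting and 35 normal steers. What the ranges stand for is not given, so they were treated as a possible batch. Between the ranges none of the 6 rows was called, beside 0.794% of 252 miRNAs. Within the upper range the log2 fold change of dark-cutting over normal was below 0 in 6 of 6 rows (53.6% of all tested), with miR-199c at -0.34 ± 0.14 (edgeR unadjusted p = 0.0187, adjusted p = 0.423) and miR-199a-5p at -0.34 ± 0.17 (edgeR unadjusted p = 0.0491, adjusted p = 0.442). Within the lower range 1 of 6 rows was below 0 (56.7% of all tested): miR-199c was at 0.046 ± 0.20, miR-199a-5p at 0.10 ± 0.24 and miR-214 at 0.22 ± 0.26. None of the 6 was called in either range, where the background was 0% in both. The difference between the ranges, tested as an interaction, was not called for any of the 6 (lowest edgeR adjusted p of the 6 rows 0.852, background 0%). Normal replicate 53 belongs to the upper range, and neither the comparisons within ranges nor the interaction were run without it.

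**Figure D2:**
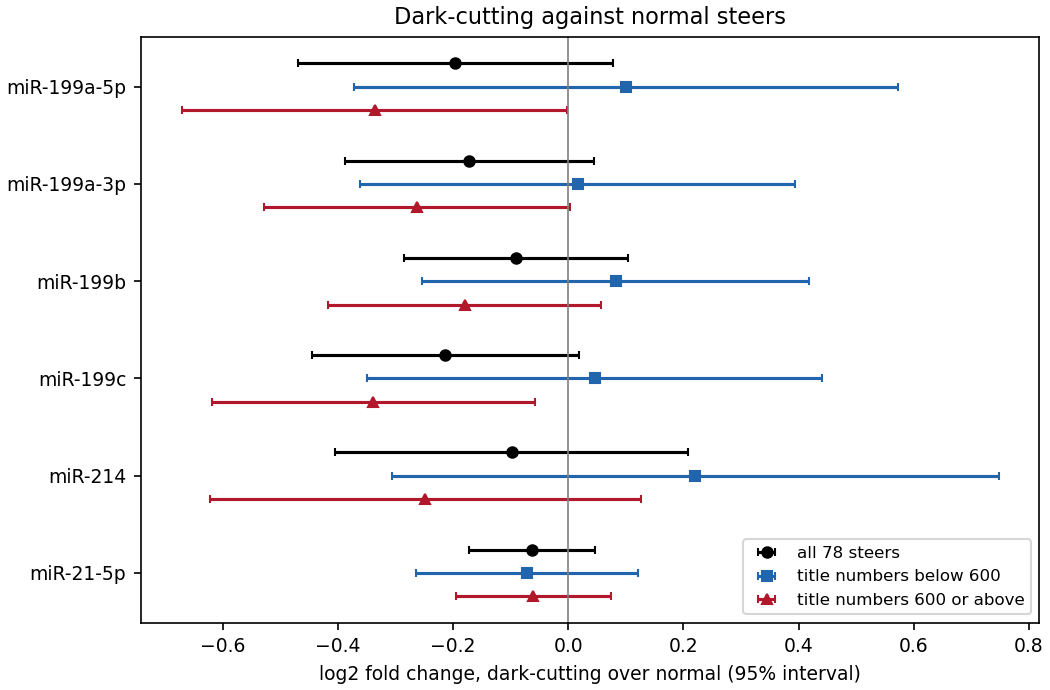
The log2 fold change of dark-cutting over normal steers (horizontal axis) is plotted with its 95% interval for the 6 tested rows (vertical axis), over all 78 steers and within each title-number range. The intervals over all steers include 0 in all 6 rows, and miR-21-5p has the narrowest, from -0.17 to 0.046.

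Against normal steers, each degree of dark cutting was tested in 1 edgeR fit over 272 miRNAs, leaving the single 3/4 steer without a comparison. None of the 6 rows was called at any degree, beside a background of 0% at 1/4, 1/3 and 1/2 and 0.368% at 2/3. These 4 comparisons share the normal steers. At 1/4, 6 of 6 rows were below 0 (51.8% of all tested), with miR-21-5p at -0.19 ± 0.087 (edgeR unadjusted p = 0.0294, adjusted p = 0.998), miR-199a-5p at -0.33 ± 0.23 and miR-199a-3p at -0.32 ± 0.18. At 1/3, 4 of 6 were below 0 (53.3%) and the values lay between -0.22 for miR-199c and 0.016 for miR-214. At 1/2, 4 of 6 were below 0 (50.4%), between -0.12 for miR-214 and 0.073 for miR-199b. At 2/3, 6 of 6 were below 0 (66.9%), with miR-214 at -0.52 ± 0.36. Single steers set the size of these values: miR-214 was at -1.04 without 2/3 replicate 1 and -0.27 without replicate 2, and miR-199a-5p, at -0.22 with all 4, was at -0.54 without replicate 1 and -0.026 without replicate 4.

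The 4 steers of 2/3 differed widely among themselves. miR-214 stood at 4.82, 2.58, 3.96 and 2.86 in their replicates 1 to 4, and miR-199a-3p at 9.49, 8.54, 9.09 and 8.35. The same 2 steers were low in both, and miR-199a-5p had the same order of high and low, at 8.33, 6.78, 7.66 and 6.68. miR-21-5p was close to level in these steers, at 11.76, 11.76, 11.73 and 11.51. In the 1/2 steers miR-214 was at 4.14, 3.60 and 4.46 and miR-199a-3p at 9.08, 8.49 and 9.30, again low together in replicate 2. The 3/4 steer had 8.62 for miR-199a-3p, 4.33 for miR-214 and 11.69 for miR-21-5p, all inside the normal range. Between the degrees from 1/4 to 2/3, none of the 6 rows was called in any of the 6 pairs of degrees (background 0% in each).

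As a trend, the log2 level was regressed on the degree, with normal steers at 0. Over all steers the slopes were below 0 in 6 of 6 rows (55.5% of all tested), from -0.43 ± 0.27 per unit of degree for miR-199c to -0.081 ± 0.12 for miR-21-5p. None was called (lowest edgeR adjusted p 0.449), beside 0.368% of 272 miRNAs. Without normal replicate 53 the median slope of the 6 rows moved to -0.23, against -0.36 with it. Within the dark-cutting steers alone, 4 of 6 slopes were below 0 (61% of all tested), from -0.66 ± 0.72 for miR-214 to 0.24 ± 0.28 for miR-21-5p, and none was called (background 0%).

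The other miRNAs of the fibrosis and connective tissue list were also compared between dark-cutting and normal steers. Of its 25 entries 19 were tested, 6 above and 13 below 0 (54% of all tested miRNAs were below 0) with a median of -0.058, and none was called in either direction, beside a background of 0%. miR-29b was at -0.19 ± 0.11 and miR-29a at -0.096 ± 0.055, both with an edgeR adjusted p of 0.416. The third member, miR-29c, was at -0.041 ± 0.098 (edgeR adjusted p = 0.916). Of the lists for other cells of the biopsy, the 2 endothelial miRNAs and the 6 white blood cell miRNAs were all below 0, beside the same 54%, with medians of -0.079 and -0.20, and none was called. White blood cell miRNAs summed to 76.2 to 264 CPM in dark-cutting and 72.8 to 391 CPM in normal steers. Red blood cell miRNAs had 1 above and 2 below 0, fat miRNAs 2 above and 1 below, smooth muscle and pericyte miRNAs 1 each, nerve miRNAs 1 each, and skeletal muscle miRNAs 2 above and 4 below, none called.

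The miR-199a-5p and miR-199a-3p rows are named as the arms of a hairpin, and their ratio did not differ by group beyond the spread between steers. miR-199a lies at more than 1 place in mouse and human, so each row may hold reads of several hairpins, which was not tested. No row is named for a 3p arm of miR-199b, and whether reads of such an arm were counted as miR-199a-3p was not tested. The log2 ratio of 5p to 3p counts was -1.48 ± 0.23 in dark-cutting steers and -1.50 ± 0.30 in normal steers (SD), so 3p outnumbered 5p by 2.82-fold on average. It ran from -1.95 through a median of -1.43 to -1.03 in dark-cutting steers and from -2.08 through -1.48 to -0.80 in normal steers. The groups overlapped throughout. The difference was 0.015 ± 0.072 (SE, limma adjusted p = 0.934 over 18 hairpins with both arms tested, background 0%), with a 95% interval of -0.13 to 0.16. Over all steers the SD of this ratio, 0.276, was the smallest of the 18 hairpins, followed by miR-423 at 0.292 and miR-126 at 0.310. SDs of hairpins with a rare arm hold more counting error.

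**Figure D3:**
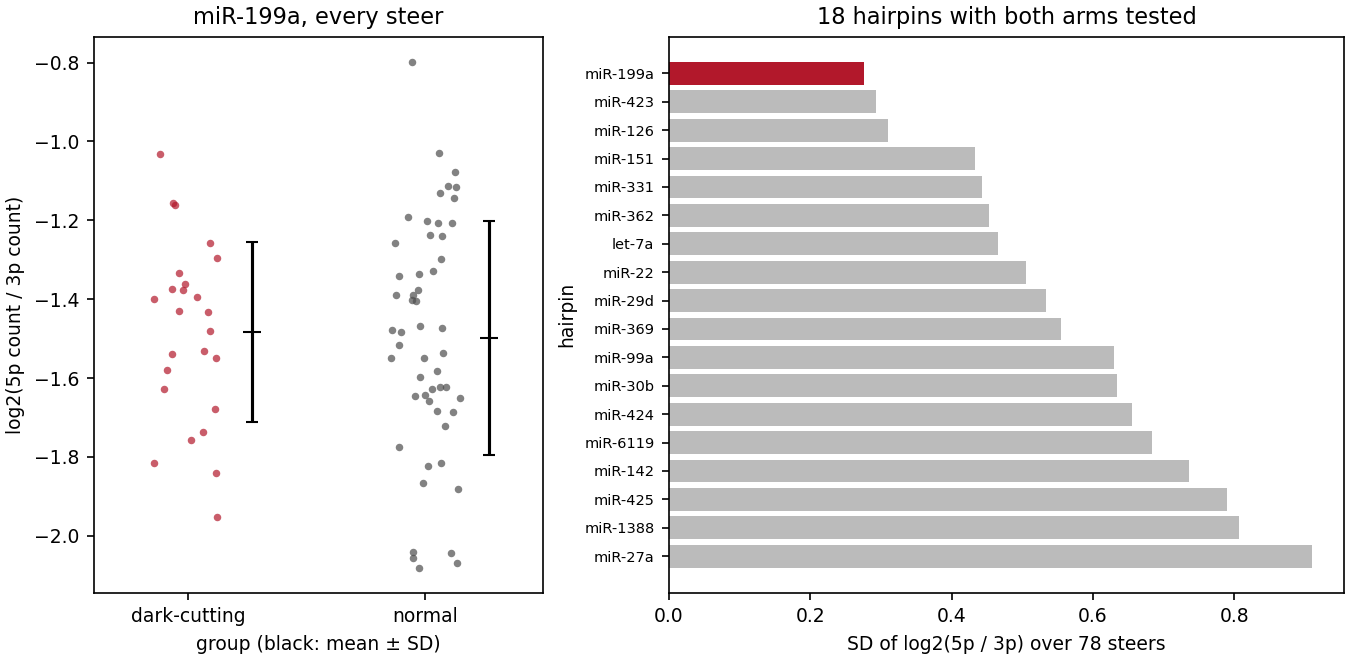
The left panel plots the log2 ratio of miR-199a-5p to miR-199a-3p counts in every dark-cutting and normal steer, with the mean ± SD in black; the right panel plots the SD of the same ratio over 78 steers for 18 hairpins, with miR-199a in red. The groups share a mean near -1.5, and the miR-199a bar is the shortest at 0.276.

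A still tighter ratio tied miR-199c to miR-199a-3p. miR-199c made up 6.65% of the summed counts of both, and the log2 ratio of miR-199a-3p to miR-199c averaged 3.86 ± 0.20 (SD) in dark-cutting steers, against 3.80 ± 0.21 in normal ones. The chi-square of the counts of both over the 78 steers was 1.95 per degree of freedom, where pure counting error gives about 1, against 4.16 to 118 for the other pairs of tested rows. For the same relative spread this value grows with read number, and the pair at 118 holds 808649 miR-21-5p reads, against 9652 of miR-199c here. Over all steers the SD of the log2 ratio was 0.204 for this pair and 0.276 to 0.605 for the others. Which reads were assigned to miR-199c, and whether some of them could also match miR-199a-3p, was not tested, since neither the sequences nor the counting settings were available in the sources used here.

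Over the 78 steers the miR-199 and miR-214 rows rose and fell together. All 10 pairs among these 5 rows were positively correlated (Spearman's rho 0.48 to 0.84), and each had a permutation adjusted p of 0.000298, resting on the smallest p that 100000 permutations can give, 1e-05. Adjustment ran over the 1491 pairs of the 6 rows with tested miRNAs, of which 10.2% were called positive and 9.73% negative. For scale, the median rho over all 31626 pairs of tested miRNAs was -0.00049, its upper 5% began at 0.37, and 2.17% of pairs reached the lowest miR-199 and miR-214 pair. The values of a steer come from 1 library and share its scaling, and scaling by the total count raised the median rho of all pairs to 0.26.

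miR-199a-3p and miR-199a-5p had rho 0.82 (Pearson's r 0.87, and 0.82 without the 2 farthest steers). For each pair these are the 2 steers farthest from the median of 1 of its miRNAs, so they can differ between pairs. That miRNA was miR-199a-5p in its own pairs, miR-199a-3p in its others and miR-199b in its pair with miR-214. miR-199a-3p and miR-199c had rho 0.84 (r 0.90, 0.88 without the 2 farthest steers). The pair named for different hairpins of the family, miR-199a-3p and miR-199b, had rho 0.77 (r 0.79, 0.75 without the 2 farthest steers). Whether these rows hold reads of a shared hairpin was not tested. miR-214 followed miR-199a-3p at rho 0.70 (r 0.77, 0.72 without the 2 farthest steers). It followed miR-199a-5p at rho 0.69 (r 0.75, 0.69 without the 2 farthest) and miR-199b at rho 0.48 (r 0.59, 0.52 without the 2 farthest). The relation of miR-214 to miR-199a-3p had rho 0.68 within dark-cutting and 0.72 within normal steers, and 0.78 within the upper and 0.52 within the lower title-number range. Without normal replicate 53 it was 0.69.

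miR-21-5p had lower values of rho with the miR-199 rows. They were 0.52 with miR-199a-3p (r 0.58, 0.53 without the 2 farthest steers), 0.46 with miR-199b, 0.42 with miR-199a-5p and 0.33 with miR-199c, each called by permutation (adjusted p of 0.000298, 0.000736, 0.00205 and 0.0228 in that order). The call with miR-199c was lost without the 2 steers farthest from the median of miR-199c (rho 0.28, permutation adjusted p = 0.0662). It was also lost within normal steers (rho 0.34, permutation adjusted p = 0.0804). Within dark-cutting steers none of these 4 pairs was called, with rho from 0.21 to 0.42 and permutation adjusted p-values from 0.268 to 0.699, and none within the lower title-number range, with rho from 0.12 to 0.39. With miR-214 the rho of miR-21-5p was 0.19 and was not called (permutation adjusted p = 0.245), whereas Pearson's r of 0.30 was (permutation adjusted p = 0.0457). This r came to 0.17 without the 2 steers farthest from the median of miR-21-5p. This pair depended on the scaling: rho was 0.68 under total-count scaling and 0.37 under the total without miR-1. Within dark-cutting steers it was -0.023 and within normal steers 0.32. No test of a difference between correlations was made.

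In all, 14 of the 15 pairs among the 6 rows were called positive. The count was 9 within the 25 dark-cutting steers, 13 within the 53 normal steers, 14 within the upper range of 52 steers and 2 within the lower range of 26 steers. With fewer steers a call needs a larger rho. The pair of miR-199a-3p and miR-204 was called at rho 0.59 over 78 steers but not at 0.61 within dark-cutting steers. The share called over all pairs within these subsets is not given here. In the lower range the 15 values of rho were all above 0, from 0.09 to 0.83.

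**Figure D4:**
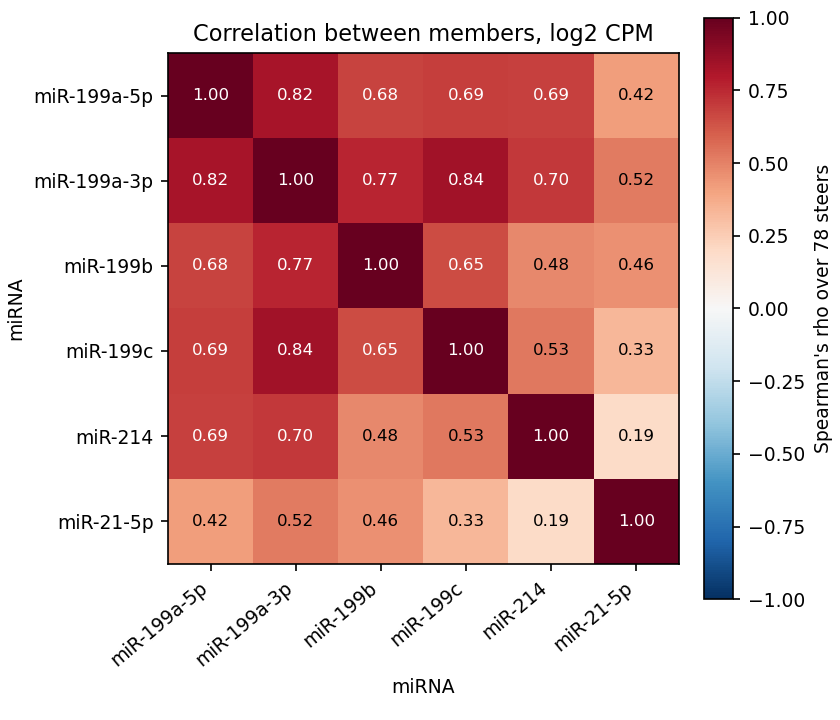
Each cell gives Spearman's rho between 2 of the 6 tested rows over 78 steers, on TMM-scaled log2 CPM, with red for positive values. The block of miR-199 and miR-214 rows holds values from 0.48 to 0.84, and the miR-21-5p row lies lower, from 0.19 to 0.52.

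**Figure D5:**
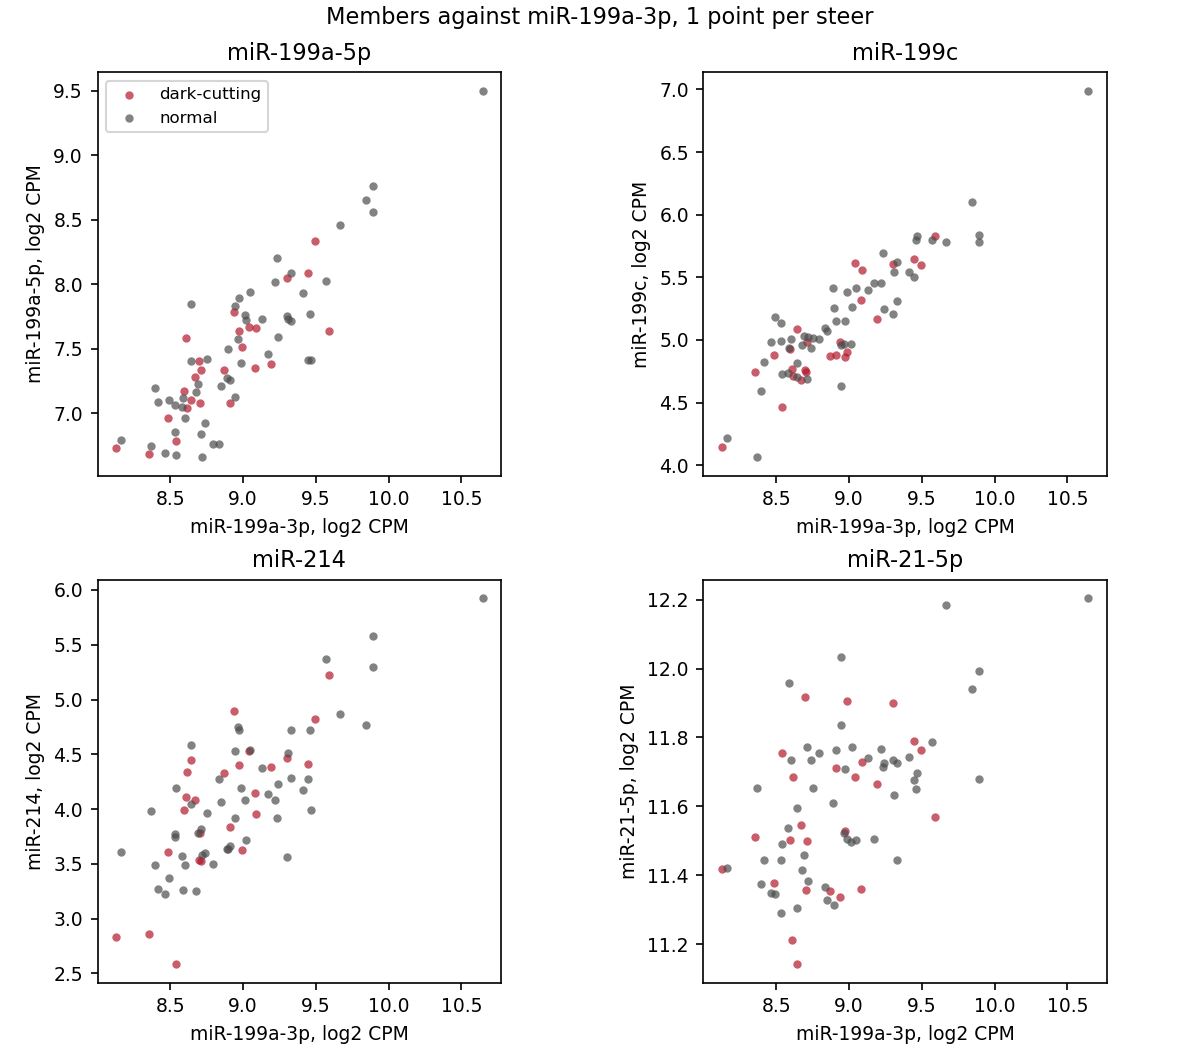
The log2 CPM of miR-199a-5p, miR-199c, miR-214 and miR-21-5p (vertical axes) is plotted against that of miR-199a-3p (horizontal axes), with 1 point per steer in red for dark-cutting and grey for normal. Both groups lie along the same band in each panel, miR-199c forms the narrowest band, and the point at 10.64 on the horizontal axis is normal replicate 53.

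Outside the family, the miRNA nearest to miR-199a-3p over the steers was miR-204 (rho 0.59, r 0.63), then miR-224 (0.58, r 0.58) and miR-99a-5p (0.57, r 0.55). miR-224 was called positive with 6 of the 6 rows, with rho from 0.33 to 0.58, and miR-99a-5p and miR-204 with 5 of 6. Over all pairs 10.2% were called positive. These miRNAs were picked by their rho in the same data, and the 6 rows were correlated with each other, so these counts are not separate observations. miR-199b was nearest to miR-99a-5p (0.73, r 0.70), miR-214 to miR-221 (0.51, r 0.50) and miR-21-5p to let-7i (0.65, r 0.69). Each of these pairs had a permutation adjusted p of 0.000298 over all steers. Within dark-cutting steers miR-199a-3p was not called with miR-204 (rho 0.61, permutation adjusted p = 0.0596) or miR-99a-5p (rho 0.50, permutation adjusted p = 0.172). Within the lower title-number range miR-199a-3p was called with none of its nearest miRNAs (rho 0.32 to 0.62), nor was miR-214 with miR-221 (rho 0.41). The pairs of miR-199b with miR-99a-5p and of miR-21-5p with let-7i stayed called in both subsets.

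miR-133a, a miRNA of muscle fibres, ran against the group. It was called negative with 6 of the 6 rows (background 9.73% of pairs), from rho -0.60 with miR-199a-5p (r -0.60) and -0.51 with miR-199a-3p (r -0.51) to -0.30 with miR-199c (r -0.36). Over the muscle list 13 of 36 pairs were called negative and 1 positive. miR-1, the most abundant muscle miRNA, showed no such pattern: it was positive with miR-21-5p (rho 0.38, permutation adjusted p = 0.00646), negative with miR-214 (rho -0.35, permutation adjusted p = 0.0144) and between -0.15 and 0.12 with the miR-199 rows, none called.

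The listed endothelial and red blood cell miRNAs were called negative with the rows more often than positive, and their part in the correlations was not tested. The endothelial list holds only the 2 arms of miR-126. The 6 rows were also correlated with each other, so the pairs within this and every other list are not independent observations. Of the endothelial list, 6 of 12 pairs (50%) were called negative and none positive, and of the red blood cell list 5 of 18 (27.8%) negative and none positive, beside 9.73% negative and 10.2% positive over all pairs. The white blood cell list, with 4 of 36 pairs (11.1%) called negative and none positive, was near that background of negative calls. The red cell miRNA miR-451 was called negative with 3 of the 6 rows, with rho -0.50 for miR-199b and -0.42 for miR-21-5p. miR-144 was called negative with 2 rows, and miR-486 was called with none (rho -0.21 to 0.13). Smooth muscle and pericyte miRNAs gave 1 positive and 1 negative call in 12 pairs, with miR-145 at 0.38 to miR-214. Fat miRNAs gave 2 positive calls in 18 pairs (11.1%), near the background, and nerve miRNAs 3 in 12 (25%), with no negative call in either list. Whether the listed miRNAs come only from the cells their list is named for was not tested.

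Of the fibrosis and connective tissue list, 19 miRNAs gave 114 pairs, 6 called positive (5.26%, beside 10.2% of all pairs) and 17 negative (14.9%, beside 9.73%), with a median rho of -0.026. miR-133a stands in this list as well as in the muscle list, and its 6 negative calls are among the 17. miR-152 was called positive with 5 of the 6 rows, up to 0.51 with miR-199c. let-7d was called negative with 5 of 6, down to -0.63 with miR-199a-5p. miR-29c was negative with miR-199b (rho -0.41, permutation adjusted p = 0.00286) and miR-199a-3p (rho -0.36, permutation adjusted p = 0.0122). miR-29a was called with miR-21-5p (rho -0.32, permutation adjusted p = 0.0288) and with none of the miR-199 rows, and miR-29b with none of the 6.

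No relation of a level with sequencing depth was called. Over 12 relations of the 6 rows with the total count and the miR-1 share, none with the total count was called, with rho between -0.078 and 0.14. With the miR-1 share, miR-21-5p had rho 0.38 (permutation adjusted p = 0.00756). Its r was 0.32, and 0.39 without the 2 steers farthest from the median miR-1 share. For miR-214 rho was -0.27 (permutation adjusted p = 0.068). Its r was -0.31 (permutation adjusted p = 0.0385), and -0.23 without those steers. miR-199b had 0.27 (permutation adjusted p = 0.068 for rho).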

How the data were processed

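Libraries of 78 steers were prepared from total RNA with a NEXTflex small RNA kit, as the labels' protocols say. In the submitters' processing notes, FastQC, Trimmomatic 0.32 and DESeq2 1.34.0 appear. Which genome build, miRNA reference, aligner and counter were used was not given in the sources used here. Neither positions nor sequences are therefore printed, nor is it stated how reads matching several miRNAs were counted.

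Per the file headers and values, the deposited matrix gives raw read counts, whole numbers by miRNA and steer. A second deposited table, the authors' own comparison, lists for every miRNA a mean normalized signal, a log2 fold change with its standard error, a Wald score, and p-values with adjusted p-values. Its 542 rows are those with at least 10 counts in all, and refitting the counts by phenotype in DESeq2 gave the same log2 fold changes.

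The main test was that of edgeR 4.0.16, run in R 4.3.3 (quasi-likelihood, robust, TMM scaling, Benjamini-Hochberg adjustment over all tested miRNAs, threshold 0.05). The filter was filterByExpr with a minimum count of 10 for phenotype, or 10 counts in 8 libraries for the degrees. Levels are log2 CPM with a prior count of 2. Arm ratios used limma 3.58.1 with a pseudocount of 0.5, and correlations used 100000 two-sided permutations of the steers (numpy 2.4.6). Scripts were tested on simulated data. Alternatives were DESeq2 1.42.0, limma-voom, other scalings, no filter, the title-number range, and leaving out steers. Intervals cover 95%, and counts without molecular identifiers are not independent molecules.

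The 7 rows and all lists were chosen with earlier results of these data known. Named outside the rows are the 3 nearest miRNAs by rho, cut here to those described, and members of the lists. Members sharing a seed could not be looked up without sequences. Each steer is 1 animal by its title number.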

Additional observations from a re-analysis of the deposited data

Results flagged for a closer look

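In the 2/3 group of 4 steers, replicate 4 had miR-21-5p at 11.51 log2 CPM, below the nearest of the others at 11.73 and the highest at 11.76, and its gap took 0.863 of the group's range. It was picked out as a sample far from the others of its group. Of 21 combinations of group and measure examined (6 rows and the miR-199a arm ratio in the 3 groups of 4 to 10 steers), this was the 1 picked out, and chance picks out about 1 in 20.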

How the results depend on the processing

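No paired analysis was possible because replicate numbers count steers within each group and tie none across groups. None of the 6 rows was called in any group comparison under any alternative run. The 49 sign changes are of values not past the test. Total-count scaling gave 0.036 for miR-199b and 0.035 for miR-21-5p between dark-cutting and normal steers, 0.058 (miR-199a-3p) and 0.12 (miR-21-5p) at 1/3, 0.011 (miR-199a-5p), 0.084 (miR-199a-3p) and 0.12 (miR-21-5p) at 1/2, 0.044 (miR-21-5p) at 2/3, slopes over all steers of 0.049 (miR-199b) and 0.15 (miR-21-5p), and slopes within dark-cutting steers of 0.17 (miR-199a-5p) and 0.13 (miR-199a-3p). The total without miR-1 gave 0.0021 for miR-21-5p. DESeq2 gave 0.022 for miR-21-5p at 2/3 and slopes within dark-cutting steers of 0.051 (miR-199a-5p) and 0.012 (miR-199a-3p). limma-voom gave 0.014 (miR-199a-5p) and 0.0016 (miR-21-5p) at 1/3, 0.0022 (miR-199a-3p) at 1/2, and a slope of -0.0024 (miR-199c). Without a low-count filter miR-21-5p was 0.045 at 2/3 and the dark-cutting slope of miR-199a-5p 0.028, and with the title-number range as a covariate that slope was 0.0029. Title numbers below 600 gave 0.13 (miR-199a-5p), 0.041 (miR-199a-3p), 0.11 (miR-199b), 0.070 (miR-199c) and 0.25 (miR-214). Normal steers alone gave 0.0029 for miR-199b between ranges. Without the 4 steers of 2/3, dark-cutting slopes were 0.011 (miR-199a-3p) and 0.017 (miR-214), and without the 3/4 steer 0.33 (miR-199a-5p), 0.24 (miR-199a-3p) and 0.099 (miR-199b). The cause was not tested.

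Each steer of 1/2 and of 2/3, and normal replicates 19 and 53, were left out in turn from the degree comparisons. This gave ranges at 1/2 of -0.44 to 0.11 (miR-199a-5p), -0.23 to 0.13 (miR-199a-3p), -0.16 to 0.36 (miR-199b), -0.15 to 0.18 (miR-199c), -0.23 to 0.064 (miR-21-5p) and -0.33 to 0.067 (miR-214), and at 2/3 of -0.54 to -0.026 (miR-199a-5p), -1.04 to -0.27 (miR-214) and -0.068 to 0.036 (miR-21-5p). At 1/3, where only those 2 normal steers were left out, values were -0.0028 and 0.031 (miR-199b) and -0.0045 and 0.0098 (miR-21-5p). Leaving out normal replicate 53 was chosen after seeing the data.

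Counts of called miRNAs outside the rows moved too. The slope over all steers called 1 miRNA, against 3 with DESeq2, 3 with total-count scaling, 3 without a filter, 0 with limma-voom and 0 without the 2/3 steers. Dark-cutting against normal called 0, against 2 without a filter and 1 with the total without miR-1. At 2/3 the count was 0 to 1 over left-out steers. Between title-number ranges it was 2, against 1 with total-count scaling and 0 in normal steers alone. Positive pairs among the rows numbered 14 of 15, against 9 in the 25 dark-cutting steers and 2 in the 26 steers with title numbers below 600. With fewer steers a call needs a larger rho. In dark-cutting steers rho of miR-21-5p with miR-214 was -0.023. The cause of these changes was not tested. The miR-199a arm ratio kept its side and sign in 4 alternatives. Depth limits miR-21-3p and, through 14 to 283 counts, miR-214.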
